A study of Caenorhabditis elegans with 12 samples.

Results

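The genes described here encode the ribosome of mitochondria and the machinery that imports proteins into them. They were all genes of the RefSeq gene table (WBcel235) whose symbol begins with *mrpl-*, *mrps-*, *tomm-*, *timm-* or *tin-*, 84 of 19983 protein-coding genes. Of these, 71 encode mitochondrial ribosomal proteins (42 *mrpl* genes, named for the large subunit, and 29 *mrps* genes, named for the small subunit). The other 13 encode import proteins, namely 5 *tomm* genes of the outer membrane translocase (TOM), 3 *timm* genes of the inner membrane translocases (TIM) and 5 *tin* genes, named for inner membrane translocase subunits and the small chaperones of the space between the membranes. The lists hold positions of peaks and no expression values, so that the name of the group rests on the gene symbols.

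ChIP-seq located KLF-1, a Krüppel-like transcription factor, as a fusion with YFP (KLF-1-YFP). GFP-Trap, an antibody fragment against GFP and its relatives on beads, recovered the fusion from whole animals on day 1 of adulthood. WT animals of the N2 background and *isp-1;ctb-1* mutants, with the alleles *isp-1(qm150)* and *ctb-1(qm189)* in subunits of respiratory complex III, gave 3 ChIP libraries each, every one with an input library of its own. Both strains carried the same integrated array, Is[pvha-6::klf-1-yfp], first made in N2 and then crossed into the mutants, in which the intestinal *vha-6* promoter drove the tagged protein and which also held *rol-6* and a neuronal mCherry. Both strains ate HT115 bacteria with the empty L4440 plasmid, and untagged animals were not among the ChIP samples.

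Mitochondria translate the few proteins of their own genome on ribosomes whose protein subunits are all encoded in the nucleus in animals. These subunits, like nearly all other mitochondrial proteins, are made in the cytosol. The ribosomal proteins pass through the pore of the TOM complex and then through a TIM complex. Both machineries are needed to build the respiratory chain, whose electron flow through complex III is lowered by the mutations of the *isp-1;ctb-1* animals. The comparison asked at which of these genes a KLF-1-YFP peak was called, in how many libraries of each strain, and how often this was so for protein-coding genes in general.

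The 6 lists held 303 to 665 peaks per library. Each list gives the fold enrichment over input of a peak and, where the authors assigned a gene, the gene and a p-value, the test behind which the sources used here do not state. The fold enrichment is that of called peaks only, so that a library without a peak has no value, and it was compared only within a list. Many peaks shared exactly the same fold enrichment, from 4.29% of the peaks of WT replicate 3 to 64.4% of those of *isp-1;ctb-1* replicate 1. Read numbers per peak are not in the lists, and the counting error of a peak is unknown. The Reporting Summary gives every *isp-1;ctb-1* ChIP library more uniquely mapped reads than any WT ChIP library, so that strain and depth cannot be told apart in what follows.

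No gene was assigned to any of the 607 peaks on chromosome III in the 6 lists, whereas 60.6 to 70.8% of the peaks on each of the other nuclear chromosomes had one. Of the 607, 382 (62.9%) had a protein-coding gene of the RefSeq table within 2000 bp. The cause of the blank entries was not tested. This gap weighs on the mitochondrial ribosome. Chromosome III carries 26 of the 84 genes (31%), 23 of them ribosomal, against 13.2% of all protein-coding genes, and none of these 26 could be named in a list. The genes were therefore read from the lists as deposited, again without chromosome III, and once more from the RefSeq table by their distance from each peak.

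**Figure D1:**
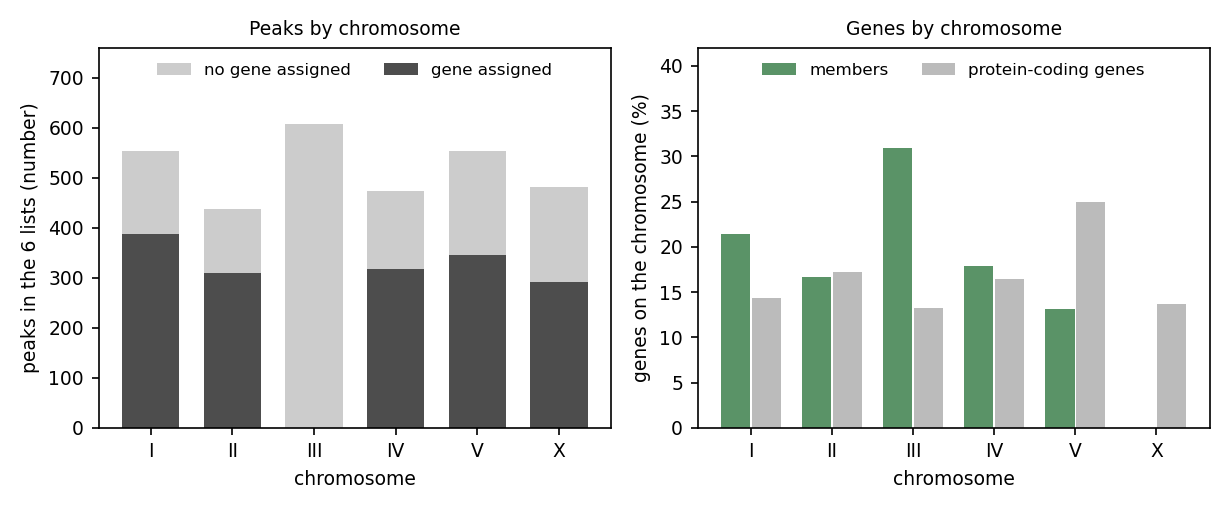
The left panel plots the number of peaks in the 6 lists on each nuclear chromosome, with those that carry an assigned gene in dark grey, and the right panel plots the percentage of the 84 mitochondrial genes (green) and of all protein-coding genes (grey) that lie on each chromosome. Chromosome III has 607 peaks and no assigned gene, and holds 31% of the mitochondrial genes, while chromosome X holds none of them.

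As deposited, the lists named 4 of the 84 genes (4.76%) in at least 1 library, and 4.88% of all protein-coding genes. With chromosome III left out they named 4 of 58 (6.9%), against 5.63%, so that either share of the mitochondrial genes was near the background. The 4 were *tomm-40*, *timm-17B.1*, *mrpl-15* and *mrpl-20*. In all 10 pairs of a peak and one of these genes the peak lay upstream, at 395 to 4446 bp with a median of 2630 bp. Over all 2777 pairs in the lists, the peak lay over the gene in 658 (23.7%) and upstream in 2119, and the median distance of the upstream pairs was 2272 bp. The distance exceeded 2000 bp in 8 of the 10 pairs of the mitochondrial genes, and in 41.8% of all pairs. The latter include the 658 pairs with the peak over the gene, and the 10 pairs repeat the same 4 genes over libraries. No pair in the lists had the peak downstream of its gene.

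*tomm-40* encodes the barrel-shaped channel of the TOM complex, through which most mitochondrial proteins enter. It was the only one of the genes named in a WT list (1 of 84, 1.19%, against 2.05% of protein-coding genes), and it was named in all 3 WT lists and in no *isp-1;ctb-1* list. This pattern was found for 13 protein-coding genes, 0.0651% of all (0.075% without chromosome III). The gene lies on chromosome II from 8971965 to 8973566 (WBcel235) on the minus strand. The fold enrichment was 1.93 in WT replicate 1, at a peak 2349 bp upstream. It was 2.01 in WT replicate 2, at a peak 3616 bp upstream. In WT replicate 3 it was 1.83, at a peak 2595 bp upstream. These values were higher than 60.1, 75.9 and 78.2% of the peaks of their lists, and the deposited p-values were 0.285, 0.220 and 0.196.

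The 3 WT peaks upstream of *tomm-40* did not mark 1 place. Those of replicates 1 and 3 shared 87 bp, and that of replicate 2 lay 396 bp beyond the nearer of them and overlapped neither. Another protein-coding gene, C18E9.7, was closer to each of the 3 peaks (1094 to 2228 bp) but was not named for them in the lists. In *isp-1;ctb-1* mutants the nearest peak was 86717 bp or more from *tomm-40* in each library. The fold enrichment of the WT peaks was also close to that of the peak over most of the mtDNA in the same libraries, with a difference of -6.33% in replicate 1, 0.144% in replicate 2 and -2.8% in replicate 3. In these 3 lists 21.5 to 29.9% of all peaks lay within 5% of the mtDNA value, and its part in the calls was not tested.

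*timm-17B.1* encodes a Tim17 protein, a subunit of the TIM23 complex that moves proteins with a presequence across the inner membrane. It was named in all 3 *isp-1;ctb-1* lists and in no WT list, a pattern found for 0.45% of protein-coding genes (0.519% without chromosome III). The gene lies on chromosome IV from 4744377 to 4745492 on the minus strand. The fold enrichment was 2.5 in replicate 1, 2.2 in replicate 2 and 2.67 in replicate 3. These were among the higher peaks of their lists, at ranks 42 of 620, 18 of 386 and 12 of 565, with deposited p-values of 0.0259, 0.0658 and 0.0225. The 3 peaks coincided, with 200 to 230 bp shared by each pair, and no WT library had a peak within 322495 bp of the gene.

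The peak named for *timm-17B.1* lay far from that gene, 4370 to 4446 bp upstream, and was named for 5 other genes as well. All of these were closer. Y17G9B.5 lay 49 to 103 bp from the peak, and the gene listed as *rpl-20* (*rpl-18A* in the RefSeq table), which encodes a cytosolic ribosomal protein, lay 84 to 160 bp from it. *cyc-2.1*, which encodes cytochrome c, was listed at 749 to 825 bp, Y17G9B.4 at 1928 to 1982 bp and *tctn-1* at 2030 to 2106 bp. By distance, *timm-17B.1* was the last of the 6 genes named for this peak.

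*mrpl-15* and *mrpl-20* encode proteins of the large mitochondrial ribosomal subunit. Both were named in *isp-1;ctb-1* replicates 1 and 3, and neither in *isp-1;ctb-1* replicate 2 or in a WT list. *mrpl-15*, on chromosome I from 1436279 to 1441334 on the plus strand, had the closest peak of the 4 genes. Its fold enrichment was 2.38 in replicate 1, 395 bp upstream, and 2.1 in replicate 3, 462 bp upstream, with 265 bp in common. No other protein-coding gene lay within 5000 bp of either peak, and *mrpl-15* was the 1 gene named for both. The deposited p-values were 0.0412 and 0.139.

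At *mrpl-20*, on chromosome II from 13338281 to 13339961 on the plus strand, the fold enrichment was 2.08 in replicate 1 and 1.99 in replicate 3. The peaks lay 2624 and 2635 bp upstream with 264 bp in common, and the deposited p-values were 0.113 and 0.188. They were named for 2 other genes too, 1 of them *sam-10*, and *mrpl-20* was the nearest protein-coding gene. The nearest WT peak was at least 62994 bp from *mrpl-15* and at least 258689 bp from *mrpl-20*.

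In the *isp-1;ctb-1* lists together, 3 of the 84 genes were named in at least 1 library (3.57%, against 4.11% of protein-coding genes). In at least 2 of 3 libraries, WT lists named 1 of the 84 genes (1.19%, against 1.11% of protein-coding genes), *isp-1;ctb-1* lists named 3 (3.57%, against 1.87%) and both strains together named none (against 0.601%). The 3 genes of the *isp-1;ctb-1* mutants were named in no WT list. Of the 373 protein-coding genes named in at least 2 of 3 *isp-1;ctb-1* lists, 205 were likewise named in no WT list. Both together held for 3.57% of the 84 genes and 1.03% of protein-coding genes. Without chromosome III the shares in at least 2 of 3 libraries were 1.72% in WT (against 1.27%) and 5.17% in *isp-1;ctb-1* mutants (against 2.15%).

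The number of genes named per library was 1, 1 and 1 in WT and 3, 1 and 3 in *isp-1;ctb-1* mutants. The strains overlapped in *isp-1;ctb-1* replicate 2. The means were 1 ± 0 and 2.33 ± 1.15 (SD, n = 3 each), a difference of 1.33 that did not pass the exact permutation test (two-sided, p = 0.4, adjusted p = 0.8 over 4 tests). With 3 libraries against 3 this test cannot go below 0.1. Leaving out *isp-1;ctb-1* replicate 2 gave a difference of 2 and no overlap. The difference was 1 without *isp-1;ctb-1* replicate 1 or replicate 3, and 1.33 with any WT library left out. Without *isp-1;ctb-1* replicate 2, the shares of all protein-coding genes did not overlap either. They were 3.39 and 2.14% for the remaining mutant libraries and at most 1.62% for a WT library. The separation was therefore not particular to the mitochondrial genes. Whether the 3 libraries of a strain stand for separate cultures is not said in the labels, and the spread between them may be technical.

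The number of protein-coding genes named also differed between the lists. They made up 1.48, 1.62 and 0.696% in WT and 3.39, 1.34 and 2.14% in *isp-1;ctb-1* mutants. Divided by these shares, the share of the mitochondrial genes was 1.08 ± 0.545 times the background in WT and 1.2 ± 0.411 times in *isp-1;ctb-1* mutants (mean ± SD of 3 libraries, p = 0.6 and adjusted p = 0.8 in the exact permutation test). The difference of 0.119 turned to -0.0203 without WT replicate 1, to -0.0564 without WT replicate 2 and to -0.114 without *isp-1;ctb-1* replicate 3. With chromosome III left out, the shares of protein-coding genes were 1.7, 1.87 and 0.802% in WT, against 1.72% of the mitochondrial genes in each library. They were 3.91, 1.55 and 2.47% in *isp-1;ctb-1* mutants, against 5.17, 1.72 and 5.17% of the mitochondrial genes.

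Ribosomal and import genes were also counted apart. Ribosomal genes were named 0, 0 and 0 times in WT and 2, 0 and 2 times in *isp-1;ctb-1* mutants (of 71, so 2.82% in replicates 1 and 3, against the 3.39 and 2.14% of protein-coding genes, exact permutation p = 0.4, adjusted p = 0.8). Of the 13 import genes, 1 (7.69%) was named in every list of both strains, against 0.696 to 3.39% of protein-coding genes, *tomm-40* in WT and *timm-17B.1* in *isp-1;ctb-1* mutants (exact permutation p = 1, adjusted p = 1). Equal numbers in the import group therefore came from different genes. With 13 genes, the 7.69% of 1 gene is the smallest share above 0 that a list can give.

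**Figure D2:**
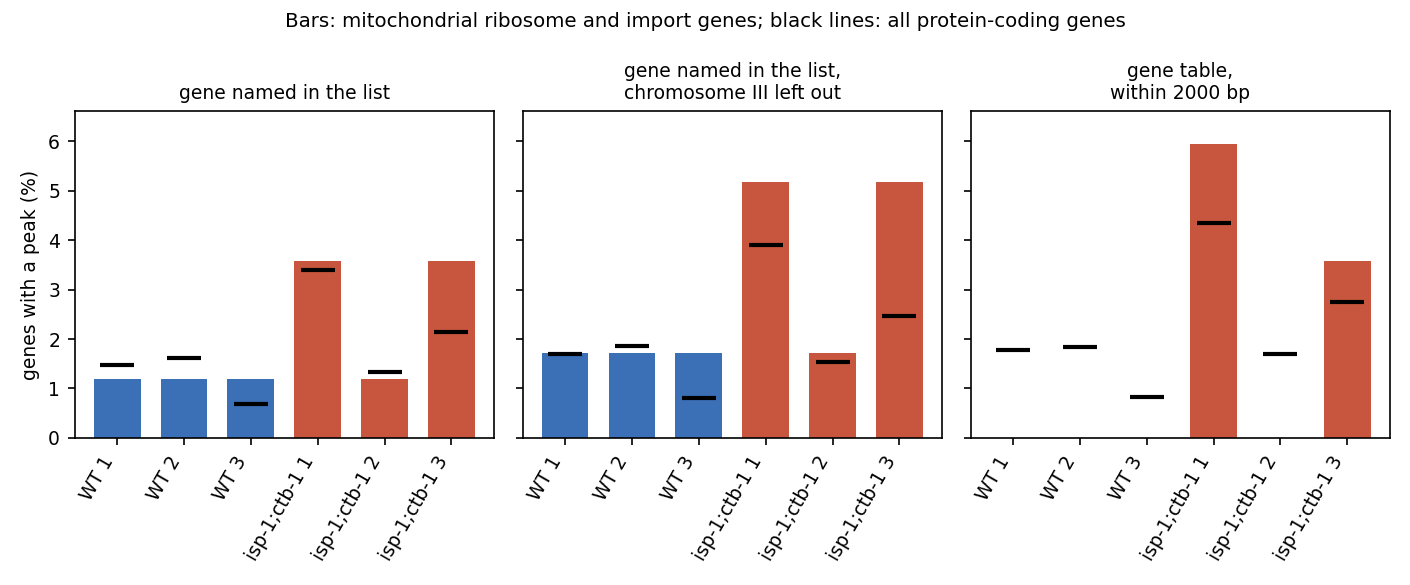
Bars plot the percentage of the 84 mitochondrial genes (58 without chromosome III) with a peak in each ChIP library, WT in blue and *isp-1;ctb-1* in red, and black lines plot the percentage of all protein-coding genes in the same library, for 3 ways of assigning genes to peaks. As deposited, the bar of *isp-1;ctb-1* replicate 1 stands at 3.57% against 3.39%, and no WT bar is seen within 2000 bp by the RefSeq table.

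The RefSeq table gave a different picture of which genes had a peak. Within 2000 bp of the span of a gene on either side, the distance that the methods state, 5 of the 84 genes had a peak in at least 1 library (5.95%, against 6.09% of protein-coding genes). All 5 were ribosomal, *mrpl-12*, *mrpl-15*, *mrpl-51*, *mrps-6* and *mrps-23*, and only *mrpl-15* was among the 4 named in the lists. All 5 were in *isp-1;ctb-1* mutants (against 5.25%), and none was in WT (against 2.3%, and 1.33% in at least 2 of 3 libraries). Per library the numbers were 0, 0 and 0 in WT, where the share of protein-coding genes was 1.78, 1.83 and 0.821%. They were 5, 0 and 3 in *isp-1;ctb-1* mutants, where that share was 4.34, 1.69 and 2.75%. The strains overlapped again in *isp-1;ctb-1* replicate 2 (difference of the means 2.67, exact permutation p = 0.4). The table gives no strand, so that upstream and downstream were not told apart for genes that the lists do not name.

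*mrpl-12*, *mrpl-15* and *mrps-23* had such a peak in at least 2 of 3 *isp-1;ctb-1* libraries and none in WT (3 of 84, 3.57%, against 1.31% of protein-coding genes with no WT peak and 2.4% with or without one). *mrpl-12*, which encodes a protein of the stalk of the large subunit, lies on chromosome III from 10707761 to 10708521. Its peak had a fold enrichment of 2.67 in replicate 1, where it ranked 19 of 620, and of 2.01 in replicate 3, where it ranked 148 of 565. The peaks lay 340 and 397 bp from the gene with 280 bp in common. Y39A1A.22 and Y39A1A.21 were closer still, at 52 to 63 bp. The nearest WT peak was 50603 bp away.

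*mrps-23*, which encodes a protein of the small subunit, lies on chromosome III from 9523121 to 9523672. The fold enrichment was 2.06 in replicate 1 and 2.01 in replicate 3, at 1054 and 1082 bp, with 216 bp in common. These peaks lay 8 and 36 bp from *prp-40*, which encodes a splicing factor, and 364 and 302 bp from *clu-1*, whose relatives in yeast and mammals keep mitochondria spread through the cell. The fold enrichment of 2.01 in replicate 3 was shared by 17 peaks of that list, those at *mrpl-12* and *mrps-23* among them.

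*mrpl-51* and *mrps-6* had a peak in *isp-1;ctb-1* replicate 1 alone, so that without this library 3 of the 5 genes had a peak within 2000 bp. *mrpl-51*, of the large subunit (chromosome IV from 12031324 to 12032154), was the nearest protein-coding gene to its peak, at 315 bp, with a fold enrichment of 2.02. The list names T12G3.6, the autophagy receptor gene *sqst-1* and others for that peak instead, at 1198 and 1557 bp by the RefSeq table. *mrps-6*, of the small subunit (chromosome I from 4173758 to 4174774), lay 1485 bp from a peak with a fold enrichment of 2.01, farther than R12E2.11 at 165 bp and *egg-5* at 464 bp.

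**Figure D3:**
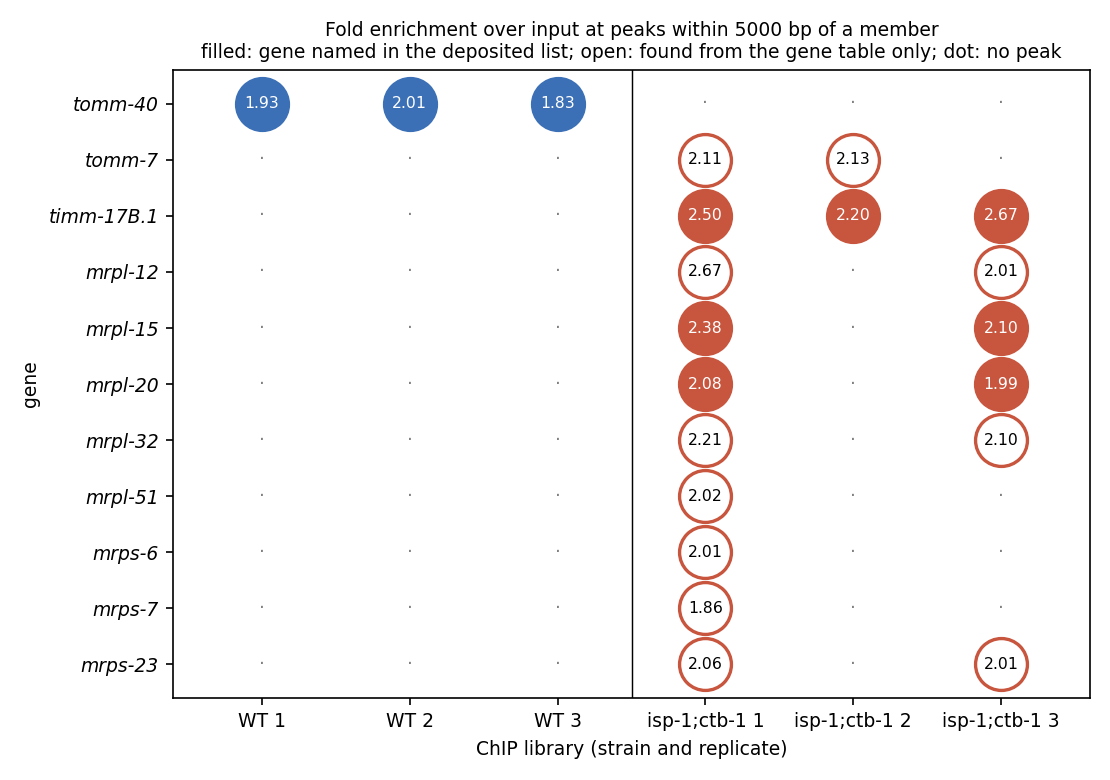
Each circle marks a peak within 5000 bp of a gene (rows) in a ChIP library (columns, WT to the left of the line and *isp-1;ctb-1* to the right) and holds its fold enrichment over input, filled where the deposited list names the gene, open where only the RefSeq table places it there, and a dot marks no peak. *tomm-40* alone has WT peaks, at 1.83 to 2.01, and the other 10 genes have peaks in *isp-1;ctb-1* libraries, at 1.86 to 2.67.

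The lists reach farther than 2000 bp, with pairs up to 4886 bp apart. Within 5000 bp by the RefSeq table, a distance chosen after the files were seen, 11 of the 84 genes had a peak (13.1%, against 10.4% of protein-coding genes), 8 ribosomal and 3 of import. Of these, 1 was in WT (1.19%, against 4.41%) and 10 were in *isp-1;ctb-1* mutants (11.9%, against 8.79%). In at least 2 of 3 libraries it was 1 in WT (against 2.67%) and 7 in *isp-1;ctb-1* mutants (8.33%, against 4.34%). None of the 7 had a WT peak. Of the 867 protein-coding genes with a peak in at least 2 of 3 *isp-1;ctb-1* libraries, 444 had no WT peak either. Both together held for 8.33% of the 84 genes and 2.22% of protein-coding genes. Per library there were 1, 1 and 1 genes in WT, against 3.47, 3.56 and 1.72% of protein-coding genes. There were 10, 2 and 6 in *isp-1;ctb-1* mutants, against 7.18, 3.09 and 4.98%. At this distance the strains did not overlap (difference of the means 5, exact permutation p = 0.1, the smallest possible).

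The genes added at 2000 to 5000 bp and not named in the lists were *tomm-7*, *mrpl-32* and *mrps-7*. *tomm-7*, which encodes a small subunit of the TOM complex (chromosome III from 7859613 to 7860159), had peaks in *isp-1;ctb-1* replicates 1 and 2, with fold enrichments of 2.11 and 2.13 at 4789 and 4798 bp. Those peaks lay 310 and 319 bp from the cytosolic ribosomal gene *rpl-35*. *mrpl-32*, of the large subunit (chromosome III from 8449757 to 8450519), had peaks in replicates 1 and 3, with fold enrichments of 2.21 and 2.1 at 2518 and 2535 bp. The first of these lay over *hsp-110* and the second 114 bp from it. *mrps-7*, of the small subunit (chromosome IV from 14766773 to 14767730), had a peak in replicate 1 alone, with a fold enrichment of 1.86 at 3110 bp, inside the span of Y57G11C.5.

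**Figure D4:**
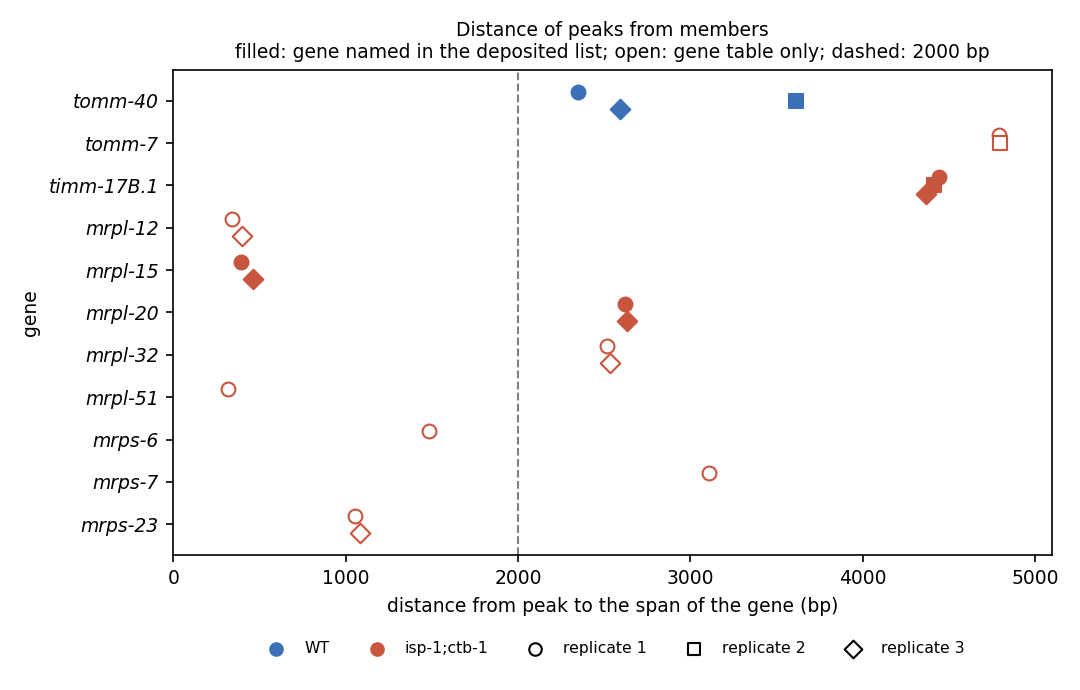
The distance in bp from each peak to the span of the gene (x axis) is plotted for the 11 genes with a peak within 5000 bp (y axis), with WT in blue and *isp-1;ctb-1* in red, a marker shape for each replicate, filled where the deposited list names the gene and open otherwise, and the dashed line at 2000 bp. The 5 genes left of the line are all ribosomal, and the import genes lie between 2349 and 4798 bp.

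No peak lay over any of the 84 genes, whichever assignment was used (against 1.21% of protein-coding genes in the lists), and 73 had none within 5000 bp. The latter were 37 of the 42 *mrpl*, 26 of the 29 *mrps*, 3 of the 5 *tomm* and 2 of the 3 *timm* genes and all 5 *tin* genes. The genes are short, with a median span of 1128 bp against 2005 bp for all protein-coding genes, and the 11 genes with a peak had a median span of 958 bp. The part of gene length in the numbers with a peak over a gene was not tested. Of the 11 genes, *mrpl-15*, *mrpl-20* and *mrpl-51* were the nearest protein-coding gene to their peaks, and for the other 8 another gene was closer to every peak.

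Nearly all of the *isp-1;ctb-1* peaks came from replicates 1 and 3. Of the 10 genes with a peak within 5000 bp in these mutants, all 10 had one in replicate 1, 6 in replicate 3 and 2 in replicate 2, which also had the fewest peaks of the 3 lists (386, against 620 and 565). By the Reporting Summary, replicate 2 had the most uniquely mapped reads of the 3. Peaks of different *isp-1;ctb-1* libraries overlapped at every gene that had more than 1, by 200 to 280 bp. The fold enrichment was above the median of its list at all of these peaks except that at *mrps-7* (1.86, against a median of 1.94).

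With fold enrichment above 1.5 and the deposited p-value below 0.05, the lists still named 2 of the 84 genes (2.38%, against 1.32% of protein-coding genes). The Reporting Summary names these thresholds without saying whether its p-value is the deposited one. These were *mrpl-15* in *isp-1;ctb-1* replicate 1 and *timm-17B.1* in replicates 1 and 3. In at least 2 of 3 *isp-1;ctb-1* libraries it was 1 gene (1.19%, against 0.145%). *tomm-40* did not pass in any WT library, and no other of the genes passed in WT (against 0.641%). Peaks without an assigned gene carry no p-value, so that no gene on chromosome III could pass.

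Other genes of mitochondrial translation and import were read from lists of related genes, within 2000 bp by the RefSeq table, where 6.09% of protein-coding genes had a peak in at least 1 library, 5.25% in *isp-1;ctb-1* mutants and 2.3% in WT. Of 15 mitochondrial aminoacyl-tRNA synthetase genes, 1 (6.67%) had a peak, *ears-2* (glutamyl-tRNA synthetase), over which a peak with a fold enrichment of 2.11 lay in *isp-1;ctb-1* replicate 1. Of 8 genes of translation factors and nucleoid proteins none had a peak. The last list held 23 genes outside the symbol rule, of import partners and of mitochondrial chaperones, proteases, prohibitins and inner membrane organization. Of the 23 genes, 4 (17.4%) had a peak, each in 1 *isp-1;ctb-1* library and in no WT library. These were *hsp-6*, the mitochondrial Hsp70 that pulls proteins in (fold enrichment 1.99, at 292 bp), the chaperonin gene *hsp-60* (1.89, at 470 bp), *ddp-1*, which encodes a small chaperone of the Tim8 type (2.14, at 50 bp), and *immt-1* of the inner membrane organizing complex (2.18, at 25 bp). None of these genes recurred in at least 2 libraries of a strain.

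The 78 genes of the cytosolic ribosome and 31 nuclear genes of the respiratory chain were set beside the mitochondrial ribosome and import genes as the groups most like them. The 31 are a chosen part of the nuclear subunit genes and include genes of ATP synthase. Within 2000 bp, 22 of the 78 cytosolic ribosomal genes (28.2%) had a peak in at least 1 library, all 22 of them in *isp-1;ctb-1* mutants and 3 in WT. Of the 31 respiratory chain genes 10 (32.3%) did, 9 in *isp-1;ctb-1* mutants and 2 in WT. Of the 84 mitochondrial ribosome and import genes 5 (5.95%) did, all in *isp-1;ctb-1* mutants. The share of all protein-coding genes was 6.09%, near that of the mitochondrial ribosome and import genes and below that of the other groups. In at least 2 of 3 *isp-1;ctb-1* libraries the numbers were 9 of 78, 5 of 31 and 3 of 84 (against 2.4% of protein-coding genes). These shares are a description and were not tested against each other.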

How the data were processed

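Peak lists of 6 ChIP libraries, 3 per strain, were analysed. Per the submitters' processing notes and the methods, the authors used QuickNGS with FastQC 0.10.1, BWA for alignment, MACS2 2.0.10 for peaks of each library over its input, and genes of Ensembl release 93. The deposited fold enrichment is a ratio of ChIP to input at a peak. The deposited p-value is given only for peaks with an assigned gene. The authors' table comparing the strains, which holds condition means, fold changes and p-values, was not used. A gene is counted once per list, with every deposited peak. Genes of RefSeq WBcel235 (46926 genes) were matched by symbol or gene ID, for 907 of 976 protein-coding genes in the lists, and background shares of the lists count all 976.

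Numbers of genes per library were compared by two-sided exact permutation tests with Benjamini-Hochberg adjustment over 4 tests. Background shares are those of all protein-coding genes. The members and lists were chosen with earlier results of these data known, and genes of related lists were named after their values were seen. Every member with a peak in a list was to be named, and those found from the RefSeq table were added after the blank entries of chromosome III were seen. Promoter letters were not analysed, because no sequence was used here. Scripts were tested on simulated peaks. Python 3.11.15, numpy 2.4.6, pandas 2.3.3 and matplotlib 3.10.9 were used.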

Additional observations from a re-analysis of the deposited data

How the results depend on the processing

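The difference between the strains in genes named per library (*isp-1;ctb-1* minus WT, 1.33) became 0 with peaks over the gene only, as did that of the ribosomal genes and that of the share relative to background. The difference of the import genes, 0 as deposited, became 0.667 at the threshold (fold enrichment above 1.5, deposited p-value below 0.05) and 0.667 within 5000 bp by the RefSeq table. With each replicate left out in turn, the difference ranged from 1 to 2 for all genes and for the ribosomal genes, was 0 throughout for the import genes, and ranged from -0.114 to 0.432 for the share relative to background. The last difference, 0.119 as deposited, was 2.16 at that threshold (p = 0.4), 0.471 within 2000 bp in the lists (p = 0.4), 0.890 within 2000 bp (p = 0.4) and 0.832 within 5000 bp (p = 0.1) by the RefSeq table, and 0.241 with all genes as background (p = 0.6), by exact permutation tests. Over all alternatives p ranged from 0.1 to 1, except for the import genes, where it ranged from 0.4 to 1. The 4 genes named in at least 1 library became 2 at that threshold, 1 within 2000 bp in the lists, 0 over the gene only and 11 within 5000 bp by the RefSeq table. The shares of protein-coding genes were 1.32, 3.22, 1.21 and 10.4%, in that order, and the 1 gene within 2000 bp in the lists was 1.19%. In at least 2 of 3 WT libraries, the 1 gene became 0 at that threshold, within 2000 bp in the lists, over the gene only and within 2000 bp by the RefSeq table. There the shares of protein-coding genes were 0.435, 0.591, 0.215 and 1.33%. In at least 2 of 3 *isp-1;ctb-1* libraries, the 3 became 1 at that threshold, 1 within 2000 bp in the lists, 0 over the gene only and 7 within 5000 bp. The shares of protein-coding genes were 0.145, 1.17, 0.37 and 4.34%, in that order. Fewer peaks or a longer reach enter by construction. With the replicate block, the difference of 1.33 had p = 0.5 (exact sign-flip permutation). The deviations of same-numbered libraries over 86 regions correlated at 0.321, 0.335 and -0.359. The labels do not say whether such libraries share a batch, and this was not tested. The alternatives of 5000 bp and without chromosome III were chosen after the data were seen.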
